A study of Urocitellus parryii with 24 samples.

Results

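Of the genes that differed between torpor and arousal in the liver of the arctic ground squirrel (AGS), 83 carry a circadian phase, the time of day at which the mouse ortholog peaks in mouse liver. The 65 genes described here are those 83 without CIRBP, TARDBP, the heat shock proteins, the fatty acid oxidation genes, and genes of the ribosome, splicing, proteasome and respiratory chain families picked out by symbol. They belong to a list of 383 genes that the study called different between torpor and arousal on these same arrays, out of 1329 genes that could be paired with a probe and 9600 probes on the array. The torpor against arousal difference therefore chose the members, and the list was taken after a test across 3 states that included the summer animals. For the members, differences between those 3 states are given below as descriptions without a test. Differences between early and late torpor, and between early and late arousal, were tested. Both stages were pooled when the list was made, so a gene with a large stage difference had a wider spread within its state and was less likely to be listed.

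Livers came from 24 animals, 1 cDNA filter array per animal, in 5 status groups of the labels. Hibernating animals were kept on a short photoperiod without food and were taken in early torpor (n = 4), late torpor (n = 5), early arousal (n = 4) or late arousal (n = 4). Torpor (T, n = 9) is the cold, metabolically suppressed state and an arousal episode (A, n = 8) is the spontaneous return to normal body temperature between bouts. Early arousal animals were sampled soon after rewarming and late arousal animals some hours later. Summer active animals (P, n = 7), which the study calls post-reproduction, were fed and not hibernating. Torpid animals were killed without anesthesia and the others under isoflurane, so anesthesia and state cannot be told apart. The labels name no genetic modification or drug. The clock time at which each animal was sampled is not given in the sources used here, and no animal was followed through a day, so these arrays hold no rhythm. The phase is an attribute taken from mouse liver.

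The liver has its own circadian clock, in which CLOCK and BMAL1 drive genes whose products feed back on them. The clock reaches metabolism largely through output transcription factors, such as the PAR bZIP protein TEF and Krueppel-like factors, and through feeding time. In mice, which sleep by day, bile acid handling, lipid use, detoxification and plasma protein genes are timed to particular hours. Phase is given in zeitgeber time (ZT), where ZT 0 is lights on and ZT 12 is lights off. Of the 65 members, 46 peaked in the light phase of the mouse, 31 of them in ZT 0 to 6 and 15 in ZT 6 to 12. The dark phase held 19, with 9 in ZT 12 to 18 and 10 in ZT 18 to 24.

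Levels are log2 values of the background-subtracted spot signal divided by the median of that signal over the array, so that 0 is the middle spot of an array and 1 is a doubling. They compare arrays for 1 probe and do not rank genes against each other. In whole liver, fewer cells of a type and less RNA per cell cannot be told apart. Each of the 65 members is shown by 1 probe. Where a gene had several probes, the study kept the one with the strongest evidence in its test across the states. Other probes of a member may be on the array and may differ, and they were not compared. None of the members' spots was marked empty, missing or saturated, and 64 members were above 2 times the local background on all 24 arrays. The exception, SPOP, was above it on 21. The median signal per array was 54.1 to 132 intensity units over a background of 13.3 to 19.9. It differed by group, at 78.9 to 114 in early torpor, 72.8 to 91.5 in late torpor and 100 to 132 in early arousal. In late arousal it was 84.3 to 118 and in summer 54.1 to 91.9. The part of array signal in the group differences was not tested. Arrays came from 2 filter sets named in the scanner files. Set A1 holds all 9 T, 7 A and 2 P arrays, and set A2 holds 5 P arrays and 1 late arousal array, so differences from P depend on how the sets are treated. The sign of T minus P turned with filter set fitted as a block in 10 of the 65 members and within A1 in 8, and that of A minus P in 13 and 12, and summer means printed below are over both sets.

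The members fell mostly on the torpor side. On average, 54 of 65 (83.1%) were higher in T than in A, against 226 of the 300 other genes of the list (75.3%) and 57.4% of the 9599 probes with values in both states. Among light phase members 42 of 46 (91.3%) were higher in T, with a median difference of 0.69. Among dark phase members 12 of 19 (63.2%) were higher in T, with a median of 0.51. By window of the mouse day, 29 of 31 members of ZT 0 to 6 were higher in T (median difference 0.71), 13 of 15 of ZT 6 to 12 (0.60), 5 of 9 of ZT 12 to 18 (0.42) and 7 of 10 of ZT 18 to 24 (0.52). The median over all probes was 0.05. After quantile normalization the counts were the same, and the medians were 0.44 for light and 0.12 for dark members. Since the rule used this contrast, nothing is read from these counts. In all 65 members the sign was the same in each of the 4 pairings of a torpor stage with an arousal stage. The choice of members by this contrast favoured that agreement too, so nothing is read from it. The smallest difference among the members was that of THRA, 0.34, and 3 members exceeded 2-fold. Genes just outside the list carry no phase in the sources used here, so their values cannot be set beside it.

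**Figure D1:**
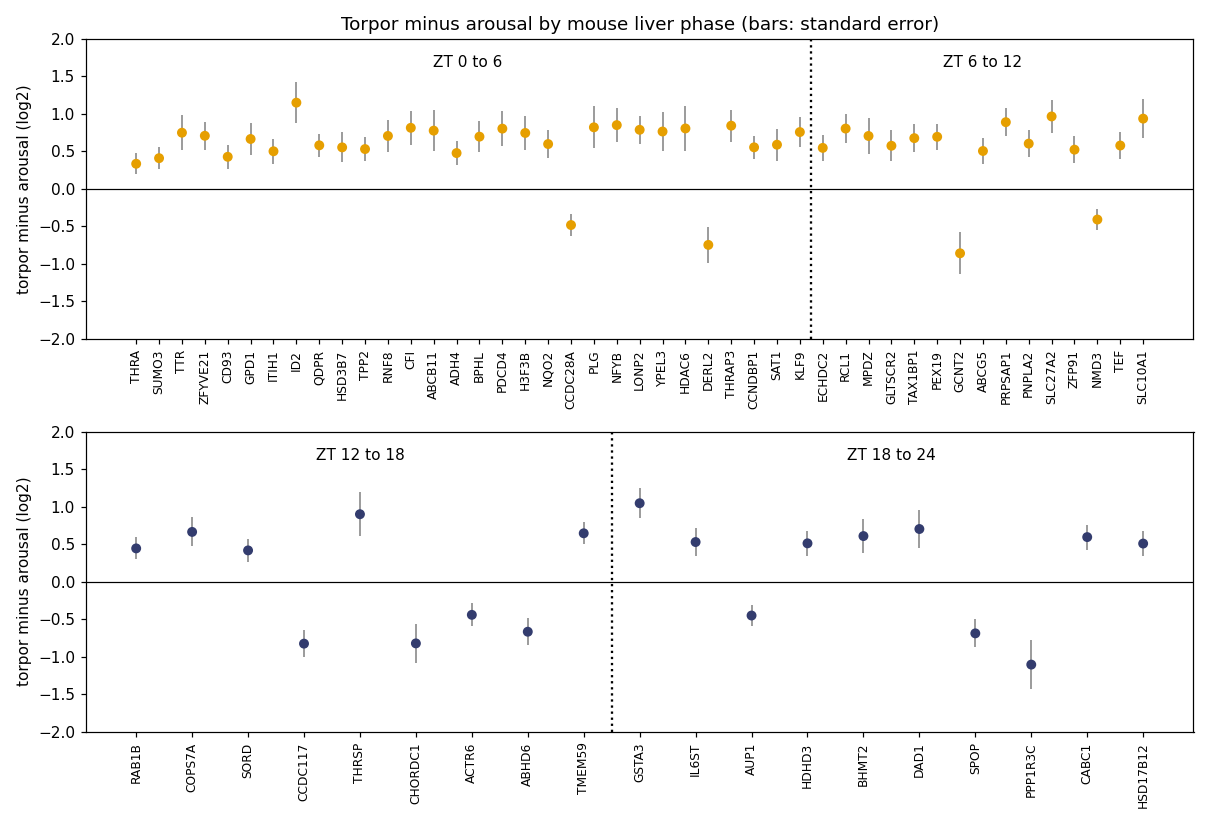
Torpor minus arousal (log2, y axis) for 64 of the 65 members, ordered along the x axis by mouse liver phase, with light phase genes above and dark phase genes below. Points are differences of means of 9 T and 8 A arrays and bars are standard errors. Points below 0 number 4 in the light phase and 7 in the dark phase.

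The direction also went with brightness. Members were mostly bright probes: 44 of 65 lay in the brightest of 4 equal classes of all probes by mean level, and there 43 of 44 were higher in T, as were 152 of 160 (95%) of the other genes of the list in that class. Of all probes in that class, 81.5% were higher in T, with a median difference of 0.28, against 57.5%, 45.8% and 44.6% in the classes below it. Within the brightest class, 34 of 34 light and 9 of 10 dark members were higher in T. In the next class down the counts were 5 of 7 light and 2 of 6 dark members. Of the 11 members lower in T, 1, PPP1R3C, was in the brightest class. After quantile normalization, which gives each array the same distribution, 55.3% of the brightest probes were higher in T, and no member changed its sign. The part of brightness in the split between light and dark genes was not tested.

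**Figure D2:**
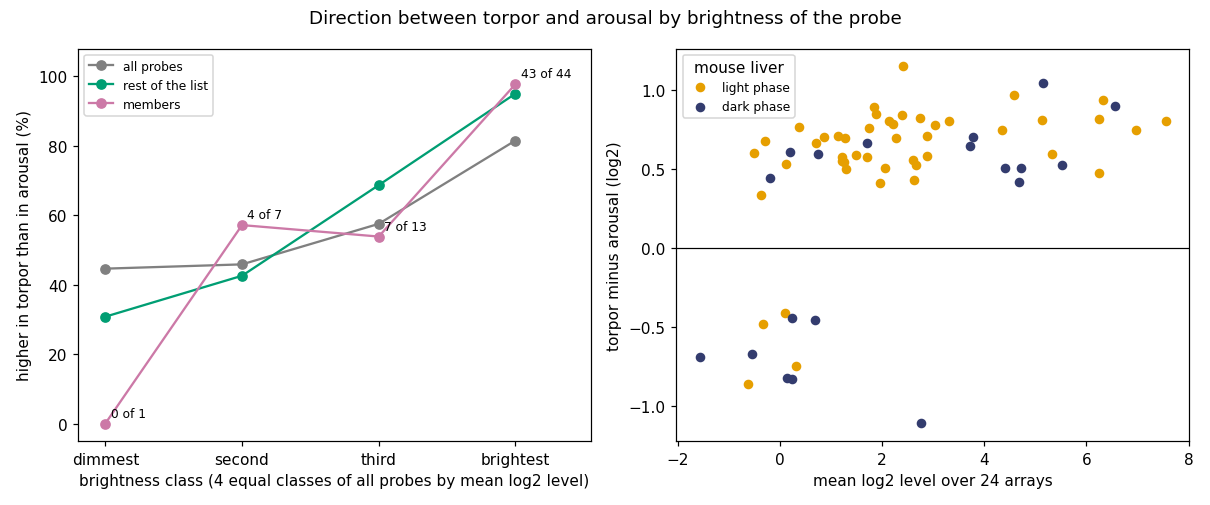
Left, the share of probes higher in torpor than in arousal (%, y axis) in 4 equal classes of all probes by mean log2 level (x axis), for all probes, the 300 other genes of the list and the members, with the members' counts. Right, torpor minus arousal (log2) against mean log2 level over 24 arrays for each member, coloured by phase. The share climbs from 44.6% to 81.5% over all probes, and the members lower in torpor lie among the dimmer ones except PPP1R3C.

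The transcription and chromatin regulators were the role with the most members (14), and 13 of them were higher in T, with a median difference of 0.76. ACTR6, a subunit of a complex that exchanges histone variants, was the exception (-0.44 ± 0.15, SE). The 4 regulators with the closest ties to the clock or to hormone timing are described array by array.

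TEF, a PAR bZIP factor driven by the clock through E-boxes, peaked in ZT 6 to 12. Its log2 level was 2.40, 2.50, 2.07 and 1.89 in early torpor and 1.59, 2.33, 2.42, 2.27 and 1.87 in late torpor. It was 1.36, 1.27, 1.75 and 0.92 in early arousal and 2.19, 1.45, 1.89 and 1.74 in late arousal. In summer it ran from 0.72 through a median of 1.46 to 1.78. All 4 early torpor arrays lay above all early arousal and summer arrays, whereas late torpor overlapped late arousal. The group means were 2.21 ± 0.29 (SD, n = 4), 2.10 ± 0.35 (n = 5), 1.32 ± 0.34 (n = 4), 1.82 ± 0.31 (n = 4) and 1.28 ± 0.42 (n = 7) in that order. T minus P was 0.87, 0.57 with filter set blocked and 0.44 within A1.

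ID2, an inhibitor of basic helix-loop-helix transcription factors that lacks a DNA-binding domain, had the largest T minus A difference of all members (1.15 ± 0.27, SE, or 2.22-fold). Early torpor arrays stood at 3.90, 3.09, 2.71 and 3.49, and late torpor arrays at 3.21, 3.90, 2.80, 3.40 and 3.02. Early arousal arrays stood at 1.58, 1.56, 2.26 and 1.63, late arousal arrays at 2.24, 3.30, 2.80 and 1.66, and summer arrays at 0.41 to 2.62 with a median of 1.57. Torpor overlapped neither early arousal nor summer, and 2 of the 4 late arousal arrays reached the torpor range. The difference between T and P was 1.68, and 1.46 within filter set A1.

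KLF9, a Krueppel-like factor induced by glucocorticoids and under clock control, peaked in ZT 0 to 6. It measured 2.04, 2.38, 2.55 and 2.65 in early torpor and 2.40, 1.70, 1.42, 2.28 and 2.09 in late torpor. It measured 1.30, 1.16, 1.26 and 2.48 in early arousal, 1.44, 0.79, 1.49 and 1.38 in late arousal, and 1.14 to 2.07 with a median of 1.46 in summer. The animal at 2.48 lay far above the other 3 of early arousal, inside the torpor range. T exceeded A by 0.76 ± 0.20 (SE), and T minus P was 0.63, or 0.29 with filter set blocked.

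THRA, a receptor for thyroid hormone, was the member with the smallest difference. Its levels were 0.16, -0.17, 0.05 and -0.18 in early torpor and -0.48, 0.17, -0.19, -0.52 and 0.26 in late torpor. They were -0.65, -0.02, -0.31 and -0.50 in early arousal, -0.30, -0.40, -0.45 and -0.87 in late arousal, and -0.94 to -0.44 with a median of -0.69 in summer. The groups overlapped between T and A. Summer arrays lay below all early torpor arrays, and the T minus P difference was 0.58, or 0.72 with filter set blocked.

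**Figure D3:**
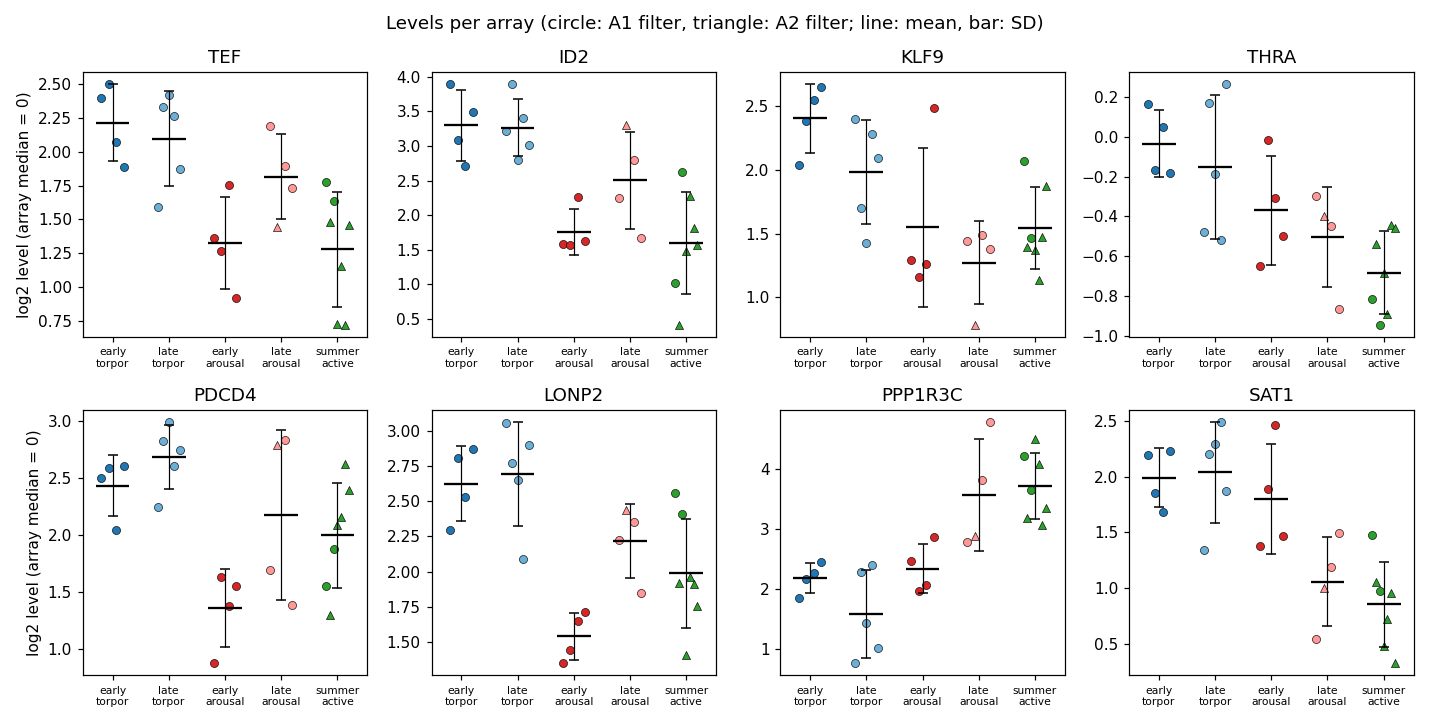
Log2 level (y axis, array median = 0) of 8 members in each of the 24 arrays, by status group (x axis), with group means (lines) and SD (bars); circles are filter set A1 and triangles A2. ID2 torpor arrays lie above all early arousal and summer arrays, LONP2 late arousal arrays above all early arousal arrays, and PPP1R3C summer arrays above all torpor and early arousal arrays.

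The other regulators higher in T included NFYB, a subunit of the CCAAT-binding factor NF-Y (0.85 ± 0.23, SE), and THRAP3, which associates with RNA processing and the Mediator complex (0.84 ± 0.22). They also included the translation inhibitor and tumour suppressor PDCD4 (0.80 ± 0.23), the cytoplasmic deacetylase HDAC6 (0.81 ± 0.29), the replacement histone gene H3F3B (0.75 ± 0.23), YPEL3 (0.77 ± 0.26), the cyclin D1 partner CCNDBP1 (0.55 ± 0.16) and the zinc finger protein ZFP91 (0.52 ± 0.18). These 8 peaked in the light. THRSP, thyroid hormone responsive protein, an activator of hepatic lipogenesis that rises with feeding, peaked in the dark. It stood at 5.96, 7.12, 5.34 and 7.49 in early torpor, 6.63, 5.93, 6.15, 5.88 and 6.21 in late torpor, 5.45, 5.24, 4.40 and 5.57 in early arousal and 5.36, 4.76, 6.47 and 5.97 in late arousal. Summer values ran from 7.32 to 9.09 with a median of 8.39, above all arousal arrays and above all torpor arrays but the one at 7.49. THRSP was 0.90 ± 0.29 (SE) higher in T than in A, and its T minus P difference was -1.89, or -1.60 within filter set A1. Its A minus P difference, -2.79 (-2.41 within A1), was the largest among the members.

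All 4 members of bile acid and sterol handling were higher in T than in A. SLC10A1 (NTCP), which takes bile acids up from portal blood, had means of 6.38 ± 0.46 (SD, n = 4) in early torpor, 6.80 ± 0.29 (n = 5) in late torpor, 5.74 ± 0.55 (n = 4) in early arousal, 5.61 ± 0.93 (n = 4) in late arousal and 6.73 ± 0.56 (n = 7) in summer. ABCB11, the bile salt export pump, stood at 3.09 ± 1.05, 3.18 ± 0.46, 2.31 ± 0.79, 2.41 ± 0.42 and 3.69 ± 0.36 (SD) in the same order. Both carriers were thus at their lowest in arousal, and their summer means were near or above torpor. HSD3B7, an enzyme of bile acid synthesis, had means of 1.13 ± 0.52, 1.30 ± 0.31, 0.83 ± 0.37, 0.51 ± 0.48 and 1.83 ± 0.44 (SD), with T minus P of -0.61, or -0.14 within A1. ABCG5, a member of the sterol exporter that sends cholesterol into bile, had 2.28 ± 0.60, 2.22 ± 0.40, 1.68 ± 0.27, 1.80 ± 0.36 and 2.20 ± 0.25 (SD). In all 4 genes T and A arrays overlapped.

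Lipid and glycogen genes were split, with 5 of 7 higher in T. SLC27A2, a fatty acid transporter and acyl-CoA synthetase, had means of 5.41 ± 0.32, 5.05 ± 0.47, 4.25 ± 0.57, 4.23 ± 0.52 and 4.17 ± 0.52 (SD) in the order early torpor, late torpor, early arousal, late arousal and summer. PNPLA2, adipose triglyceride lipase, had -0.02 ± 0.36, -0.13 ± 0.18, -0.61 ± 0.19, -0.75 ± 0.49 and -0.84 ± 0.49 (SD). In both genes summer lay below torpor, with T minus P differences of 1.04 and 0.77. For PNPLA2 this was 1.08 with filter set blocked and 1.22 within A1, and A minus P, 0.16 over all arrays, was 0.42 and 0.60. GPD1, which links glycolysis to glycerol phosphate, had 0.86 ± 0.32, 1.16 ± 0.71, 0.39 ± 0.31, 0.33 ± 0.53 and 0.66 ± 0.36. HSD17B12, which acts in fatty acid elongation and peaked in the dark, had 4.55 ± 0.27, 4.49 ± 0.31, 3.96 ± 0.25, 4.06 ± 0.35 and 4.71 ± 0.46, and its T minus A difference of 0.51 was 0.17 after quantile normalization.

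The other members of the lipid and glycogen role peaked in the dark and were lower in T. PPP1R3C (PTG), which brings protein phosphatase 1 to glycogen and promotes its synthesis, had the largest difference in that direction (-1.11 ± 0.32, SE, or 2.15-fold lower in T). It measured 1.84, 2.17, 2.28 and 2.45 in early torpor, 0.77, 2.29, 1.44, 2.40 and 1.02 in late torpor, 2.47, 1.97, 2.07 and 2.86 in early arousal and 2.78, 2.89, 3.82 and 4.78 in late arousal. Summer values were 3.07 to 4.50 with a median of 3.65. All summer arrays lay above all torpor and early arousal arrays and within the late arousal range. ABHD6, a monoacylglycerol lipase, differed by -0.67 ± 0.18 (SE), with a mean of -1.04 ± 0.38 (SD, n = 9) in T and -0.37 ± 0.38 (n = 8) in A, and by -0.28 with normexp background correction.

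The plasma protein genes were all light phase genes and all higher in T than in A. TTR (transthyretin), the carrier of thyroxine and of retinol-binding protein, had means of 7.11 ± 0.16, 7.03 ± 0.89, 6.26 ± 0.44, 6.37 ± 0.26 and 7.63 ± 0.42 (SD) from early torpor through late arousal to summer. PLG (plasminogen) had 2.98 ± 0.38, 3.46 ± 0.62, 2.59 ± 0.08, 2.27 ± 0.84 and 2.43 ± 0.73, and the complement protease CFI had 6.37 ± 0.37, 6.74 ± 0.27, 5.82 ± 0.56, 5.71 ± 0.63 and 6.40 ± 0.53. In both genes the direction against summer turned once filter set was taken into account. T minus P of PLG was 0.82 over all arrays, -0.14 with filter set blocked and -0.04 within A1, and that of CFI was 0.18, -0.36 and -0.24. ITIH1, an inter-alpha-trypsin inhibitor heavy chain, had 1.37 ± 0.28, 1.65 ± 0.16, 0.80 ± 0.46, 1.24 ± 0.12 and 1.33 ± 0.32, with T minus P of 0.19, or 0.45 within A1. These 4 genes are also among 12 hepatocyte markers on the array. Of the 12, 11 were higher in T and FGB was lower (-0.50), against 57.4% of all probes and 81.5% of the brightest class higher in T. This contrast chose the 4, and all 12 carry names because they passed the test over the 3 states, so nothing is read from the count. The summed linear level of the 12 ran from 632 to 1447 in T, 493 to 817 in A and 699.9 to 1056 in P. The hemoglobin gene HBA2, the only red blood cell marker with a name here, was 1.26 higher in T than in A (limma, adjusted p = 0.091). The leukocyte marker LYZ was 0.64 higher, DCN and DES of stellate cells differed by 0.02 and -0.40, and no bile duct marker carried a name. The endothelial marker CD93, a surface receptor and itself a member, was 0.43 ± 0.16 (SE) higher in T. The part of cell composition in the members' differences was not tested.

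All 12 enzymes of alcohol, amino acid, cofactor and detoxification metabolism were higher in T than in A, from 0.42 (SORD, sorbitol dehydrogenase) to 1.04 (GSTA3, a glutathione S-transferase). GSTA3 had means of 5.37 ± 0.11, 5.30 ± 0.52, 4.27 ± 0.48, 4.30 ± 0.20 and 5.88 ± 0.51 (SD) from early torpor to summer. A arrays reached 4.95 and T arrays began at 4.79, so the states just overlapped, and the 7 summer arrays, at 5.17 to 6.62, lay above all A arrays. PRPSAP1, which associates with phosphoribosylpyrophosphate synthetase, was 0.89 ± 0.19 (SE) higher in T, and its P mean of 1.55 ± 0.36 (SD, n = 7) was close to arousal. BHMT2, a methyltransferase that makes methionine, was 0.61 higher in T than in A, and its T minus P difference was -0.96, or -0.45 with filter set blocked. The remaining light phase enzymes were ADH4 (alcohol dehydrogenase, 0.48), QDPR (recycling of tetrahydrobiopterin, 0.58), NQO2 (quinone reductase, 0.60), SAT1 (polyamine acetylation, 0.59), BPHL (a serine hydrolase, 0.70) and ECHDC2 (an enoyl-CoA hydratase family protein, 0.55). The remaining dark phase ones were HDHD3 (a haloacid dehalogenase family protein, 0.51) and CABC1 (coenzyme Q synthesis, 0.59). Quantile normalization left ADH4 at 0.03, SORD at 0.04 and HDHD3 at 0.10.

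Of the genes of the peroxisome, LONP2, the peroxisomal Lon protease, was 0.79 ± 0.18 (SE) higher in T and PEX19, the import receptor for peroxisomal membrane proteins, 0.69 ± 0.18. Of 3 genes of ribosome assembly, RCL1 (0.80 ± 0.19) and GLTSCR2 (0.58 ± 0.20) were higher in T and NMD3, the export adaptor of the large subunit, was lower (-0.41 ± 0.14).

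Protein folding, modification, turnover and traffic held 13 members, 9 of them higher in T. TMEM59, a Golgi and lysosome membrane protein that peaked in ZT 12 to 18, was the only one of these without overlap between T and A. That separation was found in 2 of the 65 members and 0.229% of all probes. Since this contrast chose the members, nothing is read from those shares. The levels of TMEM59 were 3.71, 3.99, 3.92 and 4.07 in early torpor and 4.18, 3.82, 3.75, 4.19 and 3.84 in late torpor. They were 2.67, 2.997, 3.17 and 3.42 in early arousal, 3.54, 3.31, 3.68 and 3.61 in late arousal, and 3.48 to 4.34 with a median of 4.00 in summer. T exceeded A by 0.64 ± 0.15 (SE), and T minus P was 0.03 over all arrays, 0.26 with filter set blocked and 0.39 within A1. The others higher in T were DAD1 of the oligosaccharyltransferase (0.70), the tripeptidyl peptidase TPP2 (0.53), the ubiquitin ligase RNF8 (0.71), SUMO3 (0.41), the autophagy receptor TAX1BP1 (0.68), the COP9 signalosome subunit COPS7A (0.66), the secretory pathway GTPase RAB1B (0.44) and ZFYVE21 (0.71).

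The 4 members of that role lower in T were 3 dark phase genes, CHORDC1, AUP1 and SPOP, and the light phase gene DERL2. CHORDC1, an HSP90 cochaperone (-0.82 ± 0.26, SE), had a mean of -0.40 ± 0.41 (SD, n = 9) in T, 0.43 ± 0.64 (n = 8) in A and 0.49 ± 0.66 (n = 7) in P. DERL2 and AUP1 act in degradation of misfolded proteins at the endoplasmic reticulum and differed by -0.75 ± 0.24 and -0.45 ± 0.15 (SE). SPOP, a substrate adaptor of a cullin ubiquitin ligase and the dimmest member, differed by -0.69 ± 0.19, and by -0.09 when the background was modelled with normexp in place of subtraction. Of the surface and other proteins, the cytokine receptor IL6ST (0.53) and the scaffold MPDZ (0.71) were higher in T with CD93. The glycosyltransferase GCNT2 (-0.86), CCDC28A (-0.48) and CCDC117 (-0.83 ± 0.18) were lower. CCDC117 ran from -0.97 to 0.13 in T, from -0.10 to 0.88 in A and from 0.08 to 1.40 in P, a small overlap between T and A.

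**Figure D4:**
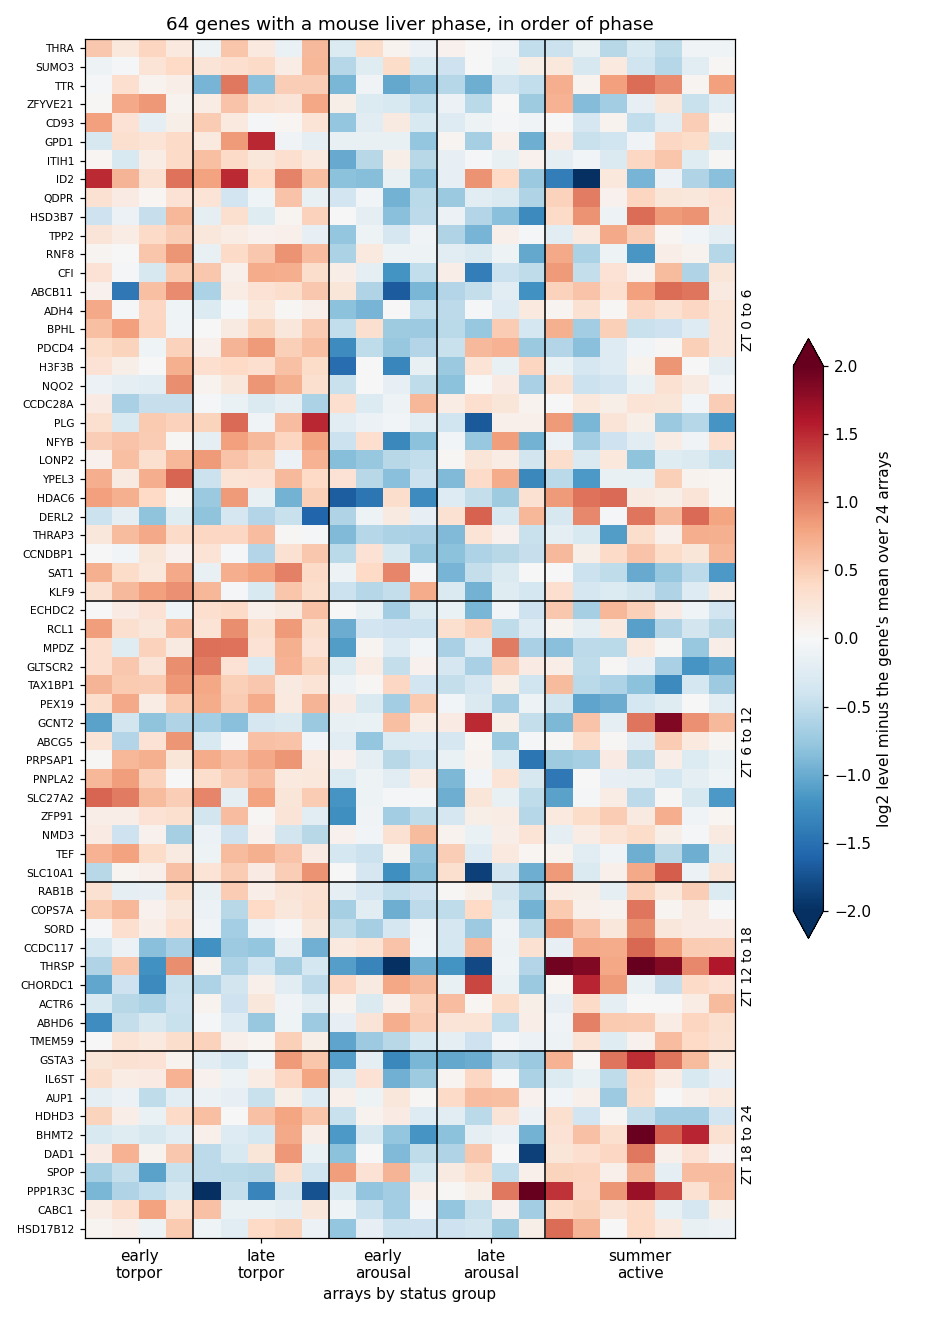
Log2 level minus the gene's own mean over 24 arrays (colour) for 64 of the 65 members (rows, in order of mouse liver phase, time windows marked at the right) in each array (columns, by status group). Most rows are above their mean in the 9 torpor arrays and below it in the 8 arousal arrays, while PPP1R3C and THRSP are highest in summer.

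Summer levels of light and dark phase genes are described side by side, with no test of their difference. Among the 42 light phase members higher in T, the P mean lay above T in 9, between T and A in 20 and below A in 13. Among the 12 dark phase members higher in T, it lay above T in 7, between in 4 and below A in 1. Of the 226 other genes of the list that were higher in T, 74 (32.7%) had a P mean above T. The counts above T were 13 of 42 and 6 of 12 with filter set blocked, and 13 of 42 and 8 of 12 within filter set A1. For the other genes of the list they were 68 of 226 (30.1%) and 73 of 226 (32.3%). Averaged over members and centred on each gene's mean over the 24 arrays, the light phase genes stood at 0.34 ± 0.08 (SD, n = 4 arrays), 0.36 ± 0.09 (n = 5), -0.39 ± 0.11 (n = 4), -0.28 ± 0.17 (n = 4) and -0.07 ± 0.11 (n = 7) from early torpor through late arousal to summer. The dark phase genes higher in T stood at 0.18 ± 0.17, 0.10 ± 0.21, -0.58 ± 0.19, -0.41 ± 0.21 and 0.39 ± 0.24. On these averages light phase genes were highest in torpor with summer in the middle, and dark phase genes were highest in summer, with THRSP, BHMT2 and GSTA3 furthest above their own means there. The windows within the light average had unlike counts over all arrays. Of genes higher in T, the P mean lay below A in 5 of 29 of ZT 0 to 6 and 8 of 13 of ZT 6 to 12. These counts were 7 and 8 with filter set blocked, and 5 and 4 within A1. Of the 226 other genes of the list higher in T, the P mean lay below A in 43. That count was 25 with filter set blocked and 26 within A1. Light phase genes with P between T and A numbered 14 of 42 with filter set blocked and 20 within A1. The order of summer and torpor in the dark phase genes was not stable. Their median T minus P difference was -0.13 over all arrays and within A1, and 0.05 with filter set blocked.

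The light phase genes with P above T were TTR, QDPR, HSD3B7, ABCB11, HDAC6, CCNDBP1, ZFP91, ADH4 and SLC10A1, of which ADH4 turned (T minus P 0.10 with filter set blocked and 0.09 within A1). The 11 members lower in T stood at -0.51 ± 0.11, -0.46 ± 0.22, 0.14 ± 0.17, 0.26 ± 0.21 and 0.39 ± 0.22 in the same order of groups. In 7 of those 11 the P mean was above A, a count of 4 with filter set blocked and 5 within A1. Of the 54 members higher in T, the lowest of the 5 group means was in early arousal for 29, in late arousal for 15 and in summer for 10. The torpor against arousal contrast chose these genes, so a torpor group could hardly be lowest, and nothing is read from these counts.

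**Figure D5:**
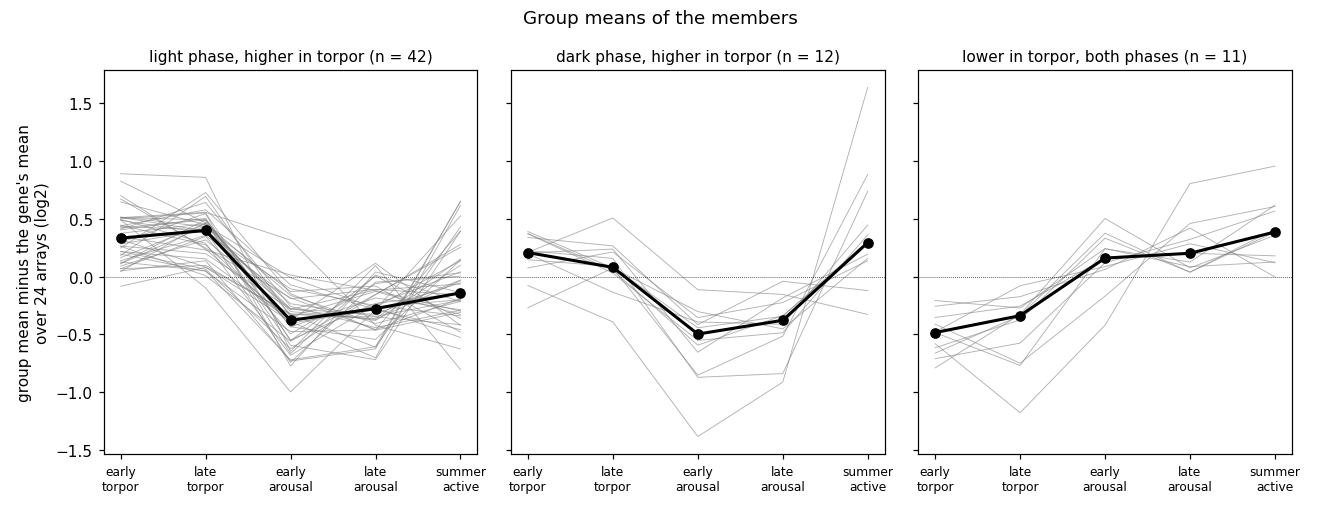
Group mean minus the gene's own mean over 24 arrays (log2, y axis) in the 5 status groups (x axis), 1 thin line per member and the median over members as the thick line. Light phase members higher in torpor (42) have their summer mean between torpor and arousal in 20 cases, above torpor in 9 and below arousal in 13. Dark phase members higher in torpor (12) pass their torpor mean in summer in 7 cases. Members lower in torpor (11) are lowest in the torpor groups, which their choice by torpor against arousal favoured.

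Stage was not the contrast that chose the members, and limma was fitted to all probes over the 5 groups. Because the choice favoured genes with little spread within a state, the counts of members below are not read as fewer than those of all probes. P-values reflect the spread between the sampled animals. Between late and early torpor, 0 of 65 members passed an adjusted p of 0.05, as did 0 of 9595 probes (0%). At an unadjusted p under 0.05 there were also 0 members, against 4.77% of all probes, and no member had stages that did not overlap (2.7% of all probes). Differences ran from -0.60 to 0.51 with a median SE of 0.26. The 5 with the lowest p were ACTR6 (0.40 ± 0.20 higher late, adjusted p = 0.983), KLF9 (-0.42 ± 0.27), MPDZ (0.51 ± 0.32), PPP1R3C (-0.60 ± 0.38) and SORD (-0.33 ± 0.22), with adjusted p = 0.998 for these 4. With 4 and 5 animals, differences of the size of these standard errors were not detectable.

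Between late and early arousal, 0 of 65 members and 0 of 9597 probes (0%) passed the adjusted threshold with limma. At an unadjusted p under 0.05 there were 7 members (10.8% of 65), against 7.79% of all probes. Of those 7, 6 were higher late (5.11% of all probes) and 1 higher early (2.69%), and 5 peaked in the light and 2 in the dark. A share this near the background is not a result about these genes as a set. The values of the 7 genes follow as a description.

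PPP1R3C, the glycogen-targeting subunit, had the largest stage difference, 1.23 ± 0.41 (SE) higher late (limma, adjusted p = 0.450). As listed above, its early arousal arrays ran from 1.97 to 2.86 and its late arousal arrays from 2.78 to 4.78, so that the stages overlapped by 1 array on each side. Among the members it was the only one with a stage difference above 1. Its late arousal mean, 3.57 ± 0.93 (SD, n = 4), was nearer to summer, 3.72 ± 0.55 (n = 7), than to early arousal, 2.34 ± 0.41 (n = 4).

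LONP2 was at 1.35, 1.44, 1.65 and 1.71 in early arousal and at 2.23, 2.44, 2.36 and 1.85 in late arousal. It was the only member whose arousal stages did not overlap, which held for 3.49% of all probes. The difference was 0.68 ± 0.24 (SE, limma, adjusted p = 0.500). Its torpor arrays, at 2.30, 2.81, 2.53 and 2.88 early and 3.06, 2.77, 2.65, 2.09 and 2.90 late, lay above all early arousal arrays.

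PDCD4 was at 0.88, 1.63, 1.38 and 1.55 in early arousal and at 1.69, 2.79, 2.83 and 1.39 in late arousal, a difference of 0.82 ± 0.31 (SE, limma, adjusted p = 0.518). Late arousal animals were split, with 2 in the torpor range of 2.04 to 2.99 and 2 below it. SAT1, which acetylates spermidine and spermine for export, went the other way. It was at 1.38, 1.89, 2.46 and 1.46 in early arousal and at 0.54, 1.001, 1.19 and 1.495 in late arousal (-0.74 ± 0.28, SE, limma, adjusted p = 0.520). Late arousal was near summer (0.33 to 1.47, median 0.95) and early arousal near torpor.

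The other 3 were TMEM59 (0.47 ± 0.20, SE), H3F3B (0.69 ± 0.31) and RCL1 (0.56 ± 0.27), all higher late, with limma adjusted p-values of 0.594, 0.616 and 0.632. H3F3B stood at 2.82, 4.35, 3.05 and 4.20 in early arousal and 3.60, 4.62, 4.20 and 4.78 in late arousal, and RCL1 at 2.32, 2.94, 2.89 and 2.89 and at 3.63, 3.78, 2.81 and 3.06. In both genes the stages overlapped. Without the early arousal animal that was lowest in RCL1 and PDCD4, 3 members in place of 7 were below an unadjusted p of 0.05.

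By role, 11 of 14 transcription and chromatin regulators had a higher mean in late than in early arousal, with a median difference of 0.45. The same held for 27 of the 51 other members (median 0.03) and 53.1% of all probes (median 0.03). ID2 (0.74 ± 0.39, SE), HDAC6 (0.71 ± 0.40), TEF (0.49 ± 0.26), ZFP91 (0.47 ± 0.25), THRSP (0.47 ± 0.42) and THRAP3 (0.44 ± 0.31) were among the 11 regulators. So was PDCD4 (0.82 ± 0.31). The name of the role is loose for PDCD4, a translation inhibitor, and HDAC6, a cytoplasmic deacetylase, and the counts were not made without them. HDAC6 was also the brightest member (mean log2 level 7.55), and whether its probe takes up other transcripts was not tested. The exceptions were KLF9 (-0.28 ± 0.28), CCNDBP1 (-0.28 ± 0.23) and THRA (-0.13 ± 0.21). Of the regulators, none passed the adjusted threshold (limma), and only PDCD4 and H3F3B were below an unadjusted p of 0.05. Between late and early torpor, 5 of 14 regulators were higher late, with a median of -0.12.

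Core clock genes bear on how far the members speak for the clock itself. Of 45 clock and clock-output genes listed, 10 could be paired with a probe, and CLOCK, BMAL1, the PER and CRY genes were not among them. Besides TEF, ID2 and KLF9, these were CSNK1D, a kinase of the PER proteins, CSNK2B, a casein kinase 2 subunit, the Krueppel-like factors KLF10 and KLF13, WEE1, a clock-driven cell cycle kinase, CYP2B6, a drug-metabolizing P450, and EGR1, an immediate early factor. The 10 carry names because they passed a test over the 3 states on these arrays. The listed genes without a pair may be absent from the array, or present and not called by that test. The sources used here do not tell these apart. With limma, 0 of the 7 that are not members passed an adjusted p of 0.05 between T and A (0.469% of 9599 probes did), and 2 of those 7 had an unadjusted p under 0.05 (14.1% of probes). Since this contrast decided which genes are members, and few probes pass in any case, nothing is read from these counts. The T minus A differences of the 7 were -0.07 ± 0.12 (SE) for CSNK1D, 0.24 ± 0.20 for CSNK2B, 0.37 ± 0.22 for KLF10, -0.30 ± 0.18 for KLF13, 0.02 ± 0.25 for WEE1, 0.69 ± 0.31 for CYP2B6 and -0.96 ± 0.36 for EGR1. 4 of the 7 were higher in T on average.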

How the data were processed

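RNA from AGS liver was amplified, labelled with 33P and hybridized in 1 batch to nylon filters of spotted AGS cDNA. The authors scanned the filters and deposited, per the file headers, median spot and local background intensity from ImaGene 6.1.0, and a table of the ratio of background-subtracted signal to the array median. That ratio was recomputed (within 4.98e-07 of the deposited ratio, except 2297 spots at a floor of 0.002) and taken to log2. Of 230400 spots, 668 at or below 0 were left missing. Gene symbols were attached by matching state means to the study's gene table. All 1329 genes matched 1 probe within 1e-04, and the next closest probe was at least 0.00532 away. A cDNA probe may also hybridize related transcripts, and the gene symbols are human names. No genome build is attached to the probes, so no coordinates or sequences are given, and the motif description planned for promoters was not run. The 65 members exclude 7 genes by symbol prefix, 2 by name, 4 heat shock proteins and 5 fatty acid oxidation genes, the last 9 by hand from their known function.

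Stages were compared with limma 3.58.1 in R 4.3.3 (lmFit, eBayes) over all 24 arrays in 5 groups, with Benjamini-Hochberg adjustment over all probes tested and a threshold of 0.05. The contrasts among T, A and P of members are descriptions, with standard errors from a fit over 3 states. The fit was tested on simulated data with added differences larger than any stage difference of the members. That test does not show whether smaller differences would be found. Named were the members by role, except 1 that is counted but not reported here, with values per group for the regulators, bile acid, plasma protein and lipid genes, the 3 largest T minus A differences per 6 h window of the mouse day, and the 5 lowest p-values per stage contrast. THRSP, TMEM59 and LONP2 were given array by array after their values were seen. The members and lists were chosen with earlier results of these data known. Alternatives were normexp background correction (offset 50), quantile normalization, a floor, the deposited ratio, a filter on dim probes, filter set or animal identifier prefix as a block, filter set A1 or winter arrays only, and leaving out each array. Array number, not read depth, limits the precision.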

Additional observations from a re-analysis of the deposited data

Results flagged for a closer look

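In 325 sets of a member in a status group, 19 (5.85%) held an animal far from the others of its group by Dixon's test, where chance gives about 1 in 20. No animal stood out more than 2 times. Values are log2 levels, with the group median in brackets.

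In early arousal, the highest animals were TTR at 6.92 (6.08), ID2 at 2.26 (1.61) and KLF9 at 2.48 (1.28), and the lowest were GPD1 at -0.074 (0.55), RCL1 at 2.32 (2.89), ABCG5 at 1.29 (1.80) and SLC27A2 at 3.41 (4.52). In late arousal, KLF9 was lowest at 0.79 (1.41), in the animal on filter set A2.

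In early torpor, NQO2 was highest at 6.26 (5.18), and GPD1 at 0.38 (0.99), NFYB at 1.90 (2.38) and ABHD6 at -1.80 (-1.01) were lowest. In late torpor, H3F3B at 4.93 (4.72) and SPOP at -1.25 (-2.09) were highest, in the same animal.

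In summer, QDPR at 3.89 (3.16), H3F3B at 5.23 (4.22) and DAD1 at 4.84 (4.07) were highest, and PNPLA2 at -1.93 (-0.68) and AUP1 at -0.048 (0.78) were lowest.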

How the results depend on the processing

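Of 2080 member differences between T and A recomputed under 32 alternatives, 24 of which left out 1 array each, 0 reversed and 7 moved by more than 1 SD (among them ADH4, SORD, HDHD3 and HSD17B12 with quantile normalization, ABHD6 and SPOP with normexp). Counts of members higher in T were 42 light and 12 dark in every alternative. The median T minus A difference of light members was 0.43 with normexp, 0.44 with quantile normalization and 0.62 to 0.72 leaving out 1 array. That of dark members was 0.33, 0.12 and 0.43 to 0.55. No alternative gave a member below an adjusted p of 0.05 between stages (lowest 0.301), and none of 330 stage differences of the named genes reversed. Members at an unadjusted p under 0.05 between torpor stages numbered 3 with normexp, 1 with the floor, 1 with the deposited ratio, 1 with A1 filters only and 0 to 2 leaving out 1 array. Between arousal stages they numbered 3 to 10 leaving out 1 array and 5 to 8 otherwise. The 3 arose without early arousal replicate 1, and the cause was not tested. No paired analysis was possible because each animal was sampled once and belongs to 1 group.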
